A study of Macaca mulatta with 16 samples.

Results

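The genes of the cytosolic ribosomal proteins were followed in the extraocular muscles, which move the eye, of adult rhesus macaques. The probe sets were those whose platform annotation names RPLP0, RPLP1, RPLP2, RPSA, or a symbol made of RPL or RPS followed by digits and at most 1 letter A or X. Any symbol of a list joined by semicolons could meet this rule, and symbols with a Y were left out. The rule found 196 of 44928 probe sets, of which 146 were on the array type U133A and 50 on U133B. They named 67 genes, 42 of the large and 25 of the small ribosomal subunit, and 40 of these genes also had a probe set on U133B. RPLP0 and RPSA were not analysed here.

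Ribosomal proteins are assembled with ribosomal RNA into a small subunit, which binds the mRNA and reads its codons, and a large subunit, which forms the peptide bonds and holds the tunnel through which the new chain leaves. Their mRNAs are among the most abundant of most cells and start with a terminal oligopyrimidine tract, through which growth signals control their translation together. In heart and skeletal muscle of mouse and human, RPL3 of the large subunit can be replaced by its paralog RPL3L.

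The study compared the outer orbital layer of the muscle with the inner global layer, both cut out with a laser, and the lateral rectus with the medial rectus, each taken whole. Each of these 4 groups was measured on 2 arrays of each of the 2 human array types, 16 arrays in all; this small number limits how precise any value is. Per the labels, a T7 polymerase step amplified the RNA of both layers, while whole muscle RNA went through the standard protocol, so that tissue and amplification cannot be told apart wherever layers are set against whole muscle. Nothing in the labels says which arrays share an animal, so a p-value reflects the spread among these samples alone and may be too small between microdissected regions. The title of orbital layer replicate 1 on U133A names the orbital layer whereas its source name gives the global layer. It was placed by its title, and results without that array are given for the medians and calls of the family and for some genes. The source name of global layer replicate 1 on U133B speaks of microdissected layers without saying which, and it too was placed by its title.

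Values are intensities, which the authors had scaled per array. A probe set is the group of probes read as 1 value, and its level can be followed between arrays but not set against that of another probe set. Of the 196 probe sets, 126 carried 1 symbol, 70 carried several, and in 48 of these 70 all other symbols were small nucleolar RNA genes. Ribosomal protein genes have many processed copies in primate genomes, and 66 probe sets on U133A and 8 on U133B carry the suffix x_at, by which the array's maker marks probes that may bind several transcripts. For 65 of the 67 genes a macaque gene of the same symbol is listed in RefSeq. Of the 196 probe sets, 17 on U133A and 7 on U133B lay below the floor set for low values (146 and 218 units) on at least 1 array.

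The 3' to 5' signal ratio of beta-actin, a sign of RNA quality and amplification, differed between layers and whole muscle and also between the layers. On U133A it was 5.30 and 5.87 in the orbital layer, 2.84 and 2.88 in the global layer and 0.716 to 1.04 in whole muscle. On U133B it was 5.29 and 4.43 in the orbital layer, 3.54 and 3.61 in the global layer and 0.512 to 0.933 in whole muscle. Its part in the results below was not tested. All 10 skeletal muscle markers were measured on U133A and none was at the floor. The summed level of the 6 fibroblast markers on U133A was 260140 and 227970 on the orbital arrays, 193230 and 195410 on the global arrays and 206440 to 268020 in whole muscle; none of these markers was at the floor, and the part of this difference between the layers in the results was not tested either. The summed level of the 5 endothelial markers was 13336 and 12450 on the orbital arrays against 19855 and 16399 on the global arrays. In these bulk samples fewer cells of a type and less RNA per cell cannot be told apart.

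The median of the family stood higher in the layers than in whole muscle on U133B in the authors' scaling. It differed between the arrays of the global layer. On U133B 28 of the 42 probe sets past the filter were higher in the layers, and 23 of these 28 also lie on U133A. On U133A, where 121 of the 146 probe sets passed the filter on low values in the comparison of layers with whole muscle, their median intensity was 34279 and 36400 on the orbital arrays, 24601 and 33282 on the global arrays, 24231 and 25407 on the lateral rectus arrays, and 23969 and 22315 on the medial rectus arrays. Global layer replicate 1 thus lay near the whole muscle arrays, and global layer replicate 2 lay near the orbital arrays. On U133B, with 42 of 50 probe sets past the filter, the medians were 75563 and 66536 in the orbital layer, 53424 and 77542 in the global layer, 33050 and 28564 in lateral rectus, and 30132 and 24056 in medial rectus. Here all layer arrays lay above all whole muscle arrays, and the layers overlapped.

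**Figure D1:**
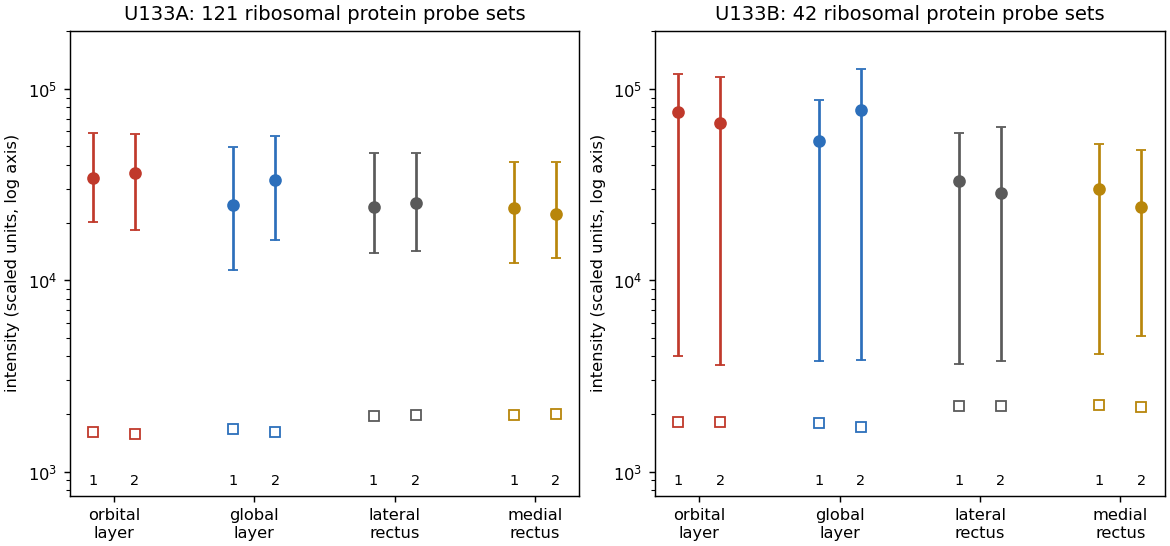
Median intensity (filled circles, log axis, scaled units) of the ribosomal protein probe sets that passed the filter, with bars from the lower to the upper quartile over probe sets, on each array of the 4 groups. Digits give the replicate, and open squares give the median of all probe sets that passed the filter on the same array; global layer replicate 1 lies below the other layer arrays on both array types, at 24601 and 53424.

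Global layer replicate 1 is a separate array on each array type, and the labels do not say whether both carry the same RNA. Each of these arrays stood apart from the other layer arrays in the share of all signal that the family took. On U133A this share was 8.38% in global layer replicate 1 and 9.53% to 9.72% on the other layer arrays. In lateral rectus it was 8.92% and 8.80%, and in medial rectus 8.17% and 8.55%. On U133B the share was 5.33% in global layer replicate 1, 6.47% to 6.83% on the other layer arrays and 3.19% to 4.15% in whole muscle. Global layer replicate 1 also had the highest 3' to 5' ratio of GAPDH among the layer arrays of each type. It was 2.92 against 1.50 to 2.00 on U133A and 4.33 against 2.04 to 3.74 on U133B. The part of that in the low readings was not tested. Between the replicates of the global layer, the family's median log2 difference (replicate 1 minus 2) was −0.25 on U133A, with 85 of 121 probe sets lower in replicate 1, whereas that of all probe sets that passed was 0.06. Between the replicates of the orbital layer it was −0.02. The medians of the layers are therefore given with and without global layer replicate 1.

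Orbital and global layers were compared to ask whether the layers differ in ribosomal protein mRNA. No ribosomal protein probe set passed the threshold, an adjusted p under 0.05 in limma. On U133A none of 121 passed against 0.409% of all 9532 probe sets tested, and 15 of the 121 (12.4%, against 9.49% of all) had an unadjusted p under 0.05. On U133B none of 40 passed against 0.021% of 9510, and none had an unadjusted p under 0.05. The median log2 difference, orbital minus global, was 0.16 on U133A against −0.04 for all probe sets tested, with 81 probe sets higher and 40 lower in the orbital layer. On U133B the median was 0.09 against 0.03, with 25 higher and 15 lower, and it was −0.02 against −0.06 when arrays were scaled to a common median and 0.20 against 0.01 with quantile normalization. On U133A these scalings gave 0.30 against 0.09 and 0.13 against −0.01. In all of them no ribosomal protein probe set passed the threshold in limma. Over all 146 and 50 probe sets, with no filter, the medians were 0.12 and 0.06. Without global layer replicate 1 they were 0.01 over the probe sets kept on U133A and −0.18 on U133B. The U133A median was 0.14 without orbital layer replicate 1, whose labels disagree.

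Counted without a model, both orbital arrays lay above both global arrays for 34 of 121 probe sets on U133A (28.1%, against 18.5% of all probe sets tested) and below them for 15 (12.4% against 23.4%). On U133B the counts were 4 of 40 above (10% against 20.8%) and 5 below (12.5% against 17.8%). With quantile normalization the counts on U133B were 13 above and 1 below, against 19.6% and 18.2% of all probe sets, and with median scaling 1 above and 8 below, against 15.5% and 22.1%. The direction of this count on U133B therefore depended on the scaling. The large subunit held 29 of the 34 probe sets above on U133A and 13 of the 15 below, from 80 of its probe sets, and its median difference was 0.22. For the 41 probe sets of the small subunit the median was 0.12.

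RPL3, which lines the site of peptide bond formation in the large subunit, was the gene with the highest median in the orbital layer. All 5 of its probe sets, all on U133A, had both orbital arrays above both global arrays. On 212039_x_at the intensity was 61919 and 52993 in the orbital layer, 32089 and 31197 in the global layer, 23461 and 23319 in lateral rectus, and 24519 and 18751 in medial rectus. The orbital arrays were the highest of the 8, the global arrays came next, and no group overlapped these 2 layers. The log2 difference of orbital minus global was 0.86 ± 0.19 SE (1.81-fold), and the adjusted p in limma was 0.203. On 211666_x_at the intensity was 21557 and 18187 in the orbital layer and 9909 and 10783 in the global layer, with lateral rectus (16003 and 16155) and medial rectus (12613 and 15002) between them. The order of global layer and whole muscle thus differed between these 2 probe sets. The log2 difference was 0.94 ± 0.22 (adjusted p in limma 0.230).

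On the other 3 probe sets of RPL3 the log2 differences were 0.78 ± 0.21, 0.74 ± 0.23 and 1.05 ± 0.37, with adjusted p-values in limma of 0.303, 0.360 and 0.433. The 1.05 belongs to 215963_x_at, whose orbital arrays read 58746 and 26143. Without orbital layer replicate 2 this probe set passed the threshold (log2 difference 1.63, adjusted p in limma 0.0124), with a lone orbital array assumed to vary like the global ones. Without orbital layer replicate 1, whose labels disagree, the 5 differences were 0.47 to 0.82 and the adjusted p-values 0.665 to 0.946. The differences were 0.65 to 1.27 without global layer replicate 1 and 0.67 to 1.00 without global layer replicate 2. Without replicate 1 the value was lower than without replicate 2 on 201217_x_at (0.65 against 0.90) and 211666_x_at (0.88 against 1.00). On the other 3 probe sets it was higher. The 5 probe sets share a target, 4 of them are also annotated to small nucleolar RNA genes, and all carry the suffix x_at.

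The paralog RPL3L had its own probe set, 206768_at on U133A. Its intensity was 22088 and 11836 in the global layer, 12755 and 9881 in the orbital layer, 4056 and 3286 in lateral rectus, and 4493 and 3418 in medial rectus. The layer arrays overlapped, and all 4 lay above all 4 whole muscle arrays. The highest reading, 22088, came from global layer replicate 1, whereas global layer replicate 2, at 11836, lay between the orbital arrays. The log2 difference of orbital minus global was −0.53 ± 0.33 (adjusted p in limma 0.641), opposite in sign to that of RPL3. Between layers and whole muscle it was 1.83 ± 0.23 (adjusted p in limma 1.47e-04).

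**Figure D2:**
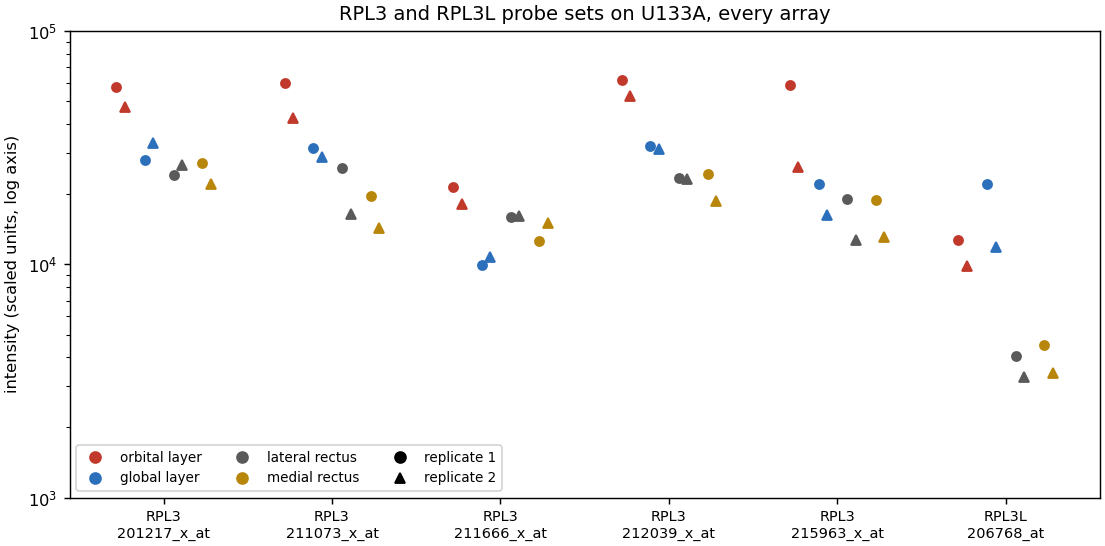
Intensity (log axis, scaled units) of the 5 RPL3 probe sets and the RPL3L probe set on each U133A array; colour marks the group and shape the replicate. For every RPL3 probe set both orbital points lie above both global points, whereas for RPL3L the orbital and global points overlap and the whole muscle points lie lowest.

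The acidic proteins RPLP1 and RPLP2 form the stalk of the large subunit that recruits elongation factors. RPLP1 read 28754 and 32378 in the orbital layer, 16829 and 22801 in the global layer, 37506 and 38610 in lateral rectus, and 44215 and 30645 in medial rectus. Its orbital arrays lay above its global arrays and overlapped whole muscle. The log2 difference of orbital minus global was 0.64 ± 0.23 (adjusted p in limma 0.441), or 0.42 without global layer replicate 1 and 0.86 without global layer replicate 2. For RPLP2 on 200909_s_at, the intensity was 17596 and 18414 in the orbital layer and 9338 and 15328 in the global layer. These arrays did not overlap either, and the difference was 0.59 ± 0.28 (adjusted p in limma 0.557), or 0.23 without global layer replicate 1 and 0.95 without global layer replicate 2. The other 2 probe sets of RPLP2 and the U133B probe set of RPLP1 were too low for this comparison.

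Other genes stood on either side. RPL13A and RPL13 of the large subunit, named here after their values were seen, had 5 of 5 probe sets higher in the orbital layer, by 0.36 to 0.62 and by 0.04 to 0.73. The RPL13A values on 200716_x_at and 210646_x_at were 1.08 and 0.92 without global layer replicate 2. That leaves only the global array with the low family reading. RPS3, at the entry of the mRNA channel, read 48520 and 45385 in the orbital layer and 24254 and 44020 in the global layer, a difference of 0.52 ± 0.29 (adjusted p in limma 0.605), which was 0.09 without global layer replicate 1 and 0.95 without global layer replicate 2. RPS19, the gene most often mutated in Diamond-Blackfan anaemia, differed by 0.54 ± 0.23 on 213414_s_at (adjusted p in limma 0.515) and by 0.23 or less on its other probe sets. RPL4, which reaches into the exit tunnel, had 87550 and 57076 against 36155 and 53338 on 200089_s_at. That difference was 0.69 ± 0.28 on U133A and 0.63 ± 0.40 on U133B, but the other 2 probe sets of RPL4 were at −0.11 and −0.13. Leaving out global layer replicate 1 and then 2 gave 0.34 and 0.74 for RPS19 on 213414_s_at. For RPL4 it gave 0.41 and 0.97 on U133A and 0.12 and 1.15 on U133B.

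On the lower side, RPL39, a small protein of the exit tunnel, read 4805 and 4064 in the orbital layer and 8143 and 6561 in the global layer. The groups did not overlap, and the difference was −0.73 ± 0.25 (adjusted p in limma 0.423). RPL38, whose loss in mouse disturbs the translation of some Hox mRNAs, differed by −0.96 ± 0.40 on 202028_s_at and −0.68 ± 0.35 on 221943_x_at, but by 0.52 ± 0.41 on 202029_x_at. Global layer replicate 1 gave opposite readings on these probe sets, with 11881 on 202028_s_at against 3848 to 4936 on the other layer arrays, and 18601 on 202029_x_at against 40777 to 50212. RPL14 differed by −1.52 ± 0.58 on 219138_at and by 0.15 and −0.11 on its brighter probe sets, and RPL27A by −0.83 ± 0.29 on 212044_s_at and 0.27 on 203034_s_at. RPS24, another gene of Diamond-Blackfan anaemia, was at −0.23 on U133A and −0.47 ± 0.32 on U133B. The adjusted p-values in limma were 0.496, 0.587 and 0.713 for the 3 probe sets of RPL38 in this order, 0.468 for RPL14, 0.432 for RPL27A and 0.767 for RPS24. Without global layer replicate 1 the lower values of RPL38 were −0.33 and −0.19, that of RPL27A was −0.53, and that of RPS24 on U133B was −0.90; without global layer replicate 2 they were −1.60, −1.17, −1.14 and −0.04, and that of RPL14 was −2.32. The first of these, RPL38 on 202028_s_at, then passed (adjusted p in limma 0.03). RPL38 on 202029_x_at turned to −0.20 without global layer replicate 1, and RPL14 was at −1.02 without orbital layer replicate 1.

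By gene, 47 of 67 had a median difference above 0. Of the 49 genes with at least 2 probe sets past the filter, 22 had all of them higher in the orbital layer, 6 had all lower and 21 were mixed. With either array of the orbital layer or global layer replicate 1 left out, at most 1 probe set passed the threshold on either array type. Without global layer replicate 2, which leaves only the array with the low family reading, 8 of the probe sets passed on U133A against 1.5% of all tested. These, listed here because they passed without that array, were higher for RPS6 (1.00), RPS7 (1.64), RPL23 (1.45), RPL35A (1.51), RPL38 on 202029_x_at (1.24) and 2 probe sets of RPL13A (1.08 and 0.92), and lower for RPL38 on 202028_s_at (−1.60).

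**Figure D3:**
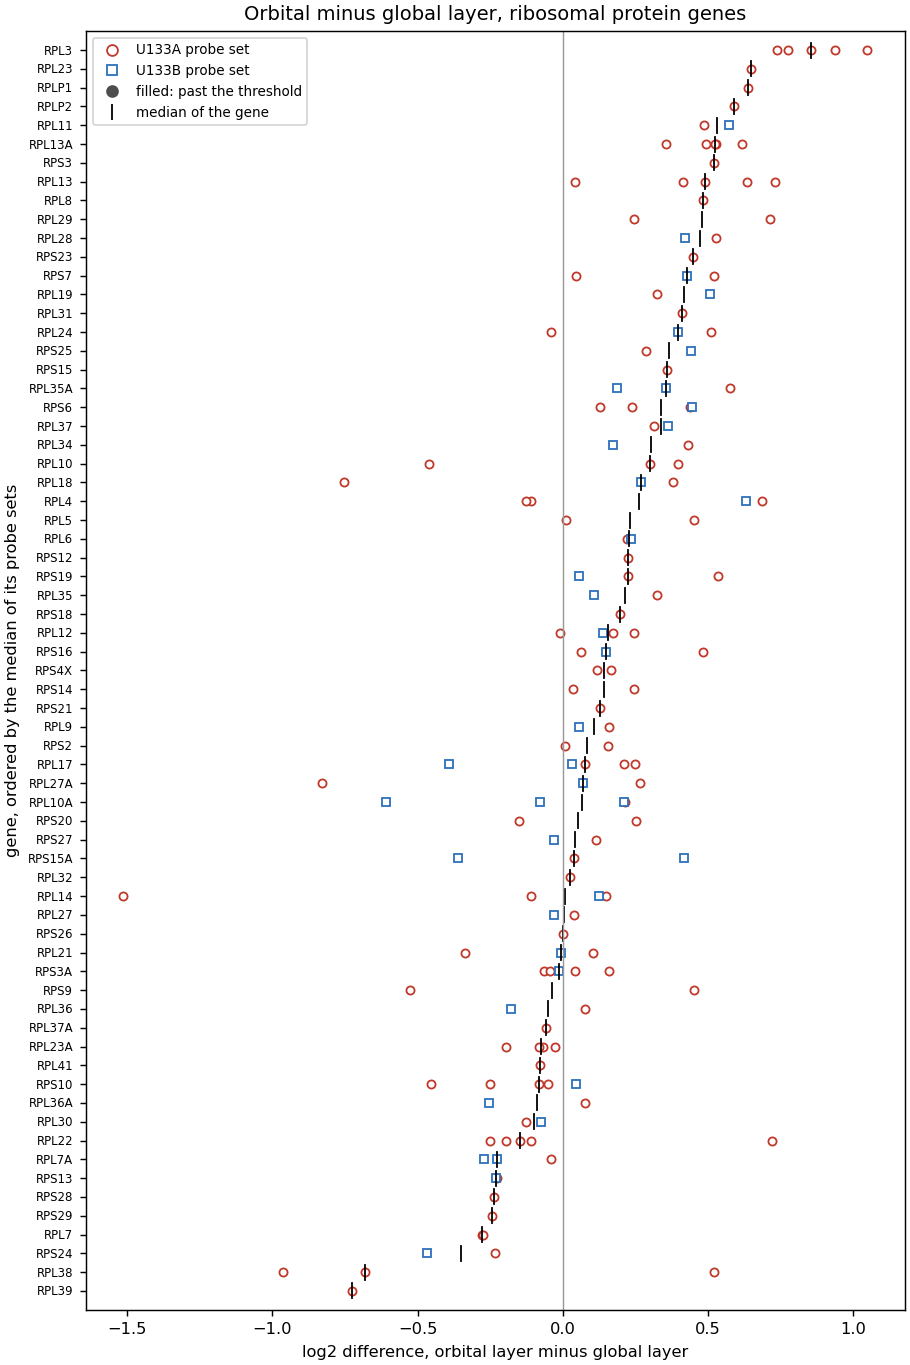
Log2 difference of orbital minus global layer for every ribosomal protein probe set past the filter, in 1 line per gene ordered by the gene's median (vertical bar); circles are U133A and squares U133B. No point is filled, since none passed the threshold, and the 5 points of RPL3 lie at the right between 0.74 and 1.05.

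Lateral and medial rectus, the muscles that turn the eye outward and inward, were compared to ask whether the horizontal muscles differ. No ribosomal protein probe set passed the threshold in limma, on either array type, and neither did any other: 0 of 125 on U133A and 0 of 42 on U133B, with 0% of all probe sets tested. An unadjusted p under 0.05 was found for 4 ribosomal protein probe sets on U133A (3.2%, against 2.8% of all probe sets tested). On U133B it was found for 1 (2.38% against 3.43%). The median log2 difference of medial minus lateral was −0.09 on U133A, with 31 probe sets higher and 94 lower in medial rectus, against 0.00 for all probe sets tested. On U133B it was −0.31, with 7 higher and 35 lower, against −0.03. Over all 146 and 50 probe sets without a filter the medians were −0.08 and −0.26. This lean was lost when the arrays were quantile normalized, which gave medians of 0.00 and −0.06. On U133B it rested on medial rectus replicate 2, without which the median was −0.09.

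Both medial arrays lay below both lateral arrays for 28 of 125 probe sets on U133A (22.4%, against 13.6% of all probe sets tested) and for 13 of 42 on U133B (31% against 16.8%). They lay above for 6 (4.8% against 15%) and 1 (2.38% against 15.2%). The haemoglobin signal moved with the same groups on U133A. The summed level of the red blood cell markers there was 32951 and 26117 in lateral and 12995 and 9022 in medial rectus. Of the 4 markers 2 were measured, and ALAS2 was at the floor in medial rectus. On U133B, with 1 marker measured, the level was 1242 and 3226 in lateral and 2106 and 3410 in medial rectus, which overlap. The part of these markers in the result was not tested.

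RPL11, which binds the regulator MDM2 when ribosome assembly fails, showed the largest difference on U133B among those with groups apart. It read 20403 and 17646 in medial rectus and 30519 and 44581 in lateral rectus. The groups did not overlap on U133B, and the difference was −0.96 ± 0.30 (adjusted p in limma 0.991). On U133A the same probe set read 15972 and 14164 in medial and 13842 and 26580 in lateral rectus, which overlap. RPL8, next to the peptidyl transferase centre, read 21731 and 20798 in medial and 29822 and 30219 in lateral rectus, a difference of −0.50 ± 0.18 (adjusted p in limma 0.999). RPL24, which bridges the subunits, differed by −0.51 ± 0.21 on U133A, and its 2 medial arrays read 13674 and 13680. The dim probe set 200908_s_at of RPLP2 read 609 and 376 in medial and 1595 and 1293 in lateral rectus, a difference of −1.59 ± 0.53, whereas the bright 200909_s_at differed by −0.23 ± 0.19. Higher in medial rectus was RPS19 on 242451_x_at of U133B, at 5873 and 6350 against 4313 and 3749 (0.60 ± 0.29, adjusted p in limma 0.991). RPL3 differed by −0.30 to 0.01 on its 5 probe sets, with adjusted p-values in limma of 0.999; whether this differs from its difference between the layers was not tested.

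Layers and whole muscle were compared although RNA of the layers was amplified and RNA of whole muscle was not, and the comparison shows which probe sets moved with both together. Here 48.7% of all probe sets tested passed in either direction on U133A and 42.8% on U133B. On U133A 41 of 121 probe sets were called higher in the layers (33.9%, against 18.6% of all probe sets tested) and 22 lower (18.2% against 30.1%). On U133B 25 of 42 were called higher (59.5% against 20.5%) and 5 lower (11.9% against 22.3%). Probe sets that also lie on U133A held 21 of these 25 higher calls and 0 of the 5 lower calls. The median log2 difference of layers minus whole muscle was 0.18 on U133A against −0.18 for all probe sets tested, and 0.87 on U133B against −0.21. With no filter the medians were 0.11 over all 146 and 0.64 over all 50 probe sets. All 4 layer arrays lay above all 4 whole muscle arrays for 35 probe sets on U133A (28.9% against 16.6%) and 23 on U133B (54.8% against 19.1%), and below for 17 (14% against 27.3%) and 4 (9.52% against 21.6%).

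The direction of the family as a whole depended on how the arrays were scaled. With arrays scaled to a common median, 86 probe sets were called higher and 4 lower on U133A (71.1% and 3.31%, against 41.5% and 10.3% of all probe sets), with a median of 0.82. On U133B 27 were called higher and 2 lower (64.3% and 4.76%, against 30.7% and 7.27%), with a median of 1.37. Under that scaling the median of all probe sets was 0.46 and 0.29, so that the family stood 0.36 and 1.07 above it, as it did by 0.36 and 1.08 in the main scaling. With quantile normalization 16 were called higher and 30 lower on U133A (13.2% and 24.8%, against 19.7% and 19.4% of all probe sets). On U133B 5 were called higher and 7 lower (11.9% and 16.7%, against 17.5% and 13.9%). The medians were −0.13 and −0.07, below those of all probe sets (0.00 and −0.04).

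Single genes differed by far more than the family. RPL4 had all 4 of its probe sets called higher, by 1.47 to 3.86 with a median of 2.27. The larger values were those of 200089_s_at, which carries 5 symbols and lies on both array types. On U133A this probe set read 36155 to 87550 in the layers and 5927 to 8710 in whole muscle. On U133B it read 98940 to 288530 against 10215 to 14176. The layers lay above whole muscle on every array, by 2.96 ± 0.24 (7.79-fold, adjusted p in limma 1.14e-05) and 3.86 ± 0.29 (14.5-fold, adjusted p 4.92e-06). RPS16, which contacts the tRNA in the peptidyl site, rose by 1.27 ± 0.22 and 0.97 ± 0.15 on U133A and by 2.24 ± 0.25 on 226131_s_at of U133B. RPS3 read 24254 to 48520 in the layers and 14187 to 19105 in whole muscle, a rise of 1.24 ± 0.21 (adjusted p in limma 8.15e-04). RPS2, also at the entry of the mRNA channel and named here after its values were seen, rose on both probe sets past the filter (1.78 ± 0.14 and 1.36 ± 0.14). RPS25, which some viral mRNAs need to start translation, rose by 1.16 ± 0.29 and, on U133B, 2.01 ± 0.30, although its groups overlapped on U133A. RPL19 (0.85 ± 0.15 and 1.67 ± 0.25) and RPL35 (1.50 ± 0.19 on U133B), both near the exit of the tunnel, rose as well, RPL19 on both array types.

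RPL10A, which forms the mobile L1 stalk, rose by 1.83 ± 0.25 on 229563_s_at of U133B and by 0.82 ± 0.23 on 200036_s_at. On U133B, RPS10 (1.53 ± 0.24), RPL6 (1.51 ± 0.24), RPL37 (1.34 ± 0.25), RPL18 (1.30 ± 0.23) and RPL14 (1.12 ± 0.21) also rose, with adjusted p-values in limma of 4.43e-04 to 0.0016. The same probe sets of RPL37 (0.33), RPL18 (0.34) and RPL35 (0.35) were not called on U133A. Those of RPS10 (0.93), RPL6 (0.67) and RPL14 (0.39) were called there. Under quantile normalization RPL35, RPL37, RPL18, RPL6, RPL19 and RPS25 no longer passed on U133B, with values of 0.02 to 0.80, RPL19 (0.28) and RPS25 (0.61) no longer passed on U133A either, and RPL14 (−0.15) and the 200036_s_at probe set of RPL10A (−0.52) turned sign. RPL3 rose on 3 of 5 probe sets, by 0.68 ± 0.21, 1.07 ± 0.24 and 0.93 ± 0.22, was at 0.80 ± 0.33 on 215963_x_at without passing (adjusted p in limma 0.0598), and was at −0.06 ± 0.24 on 211666_x_at. Its 201217_x_at value of 0.68 did not pass without orbital layer replicate 1 (0.50) or 2 (0.59), and RPL3 did not pass under quantile normalization on the 3 probe sets that rose, at 0.19 to 0.56, while 211666_x_at fell by 0.62 there.

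Lower in the layers was RPL37A, a zinc-binding protein of the large subunit, with the largest difference of the family. On 214041_x_at it read 243 to 390 in the layers and 5132 to 6855 in whole muscle. The groups lay far apart, at −4.36 ± 0.21 (20.5-fold, adjusted p in limma 9.65e-07). The bright probe set 201429_s_at of the same gene read 138060 to 150404 and 165553 to 210057, a difference of −0.32 ± 0.12 (adjusted p in limma 0.0418). That call was lost when any array of the global layer, orbital layer or lateral rectus was left out (−0.24 to −0.34), with no filter, with no intensity trend and with the floor at the 40th percentile. It was −0.01 with quantile normalization, and its sign turned under median scaling (0.32). RPL38 fell by 2.15 ± 0.25 on 221943_x_at and 1.33 ± 0.31 on 202028_s_at. RPL11 fell by 1.48 ± 0.34 on U133A, where the layers read 2775 to 9457 and whole muscle 13842 to 26580. RPS14 of the platform of the small subunit (−1.03 ± 0.23 on 214245_at), RPS24 (−0.91 ± 0.18) and RPL27A (−0.86 ± 0.26) fell on U133A; with median scaling these, RPL11 and the 202028_s_at probe set of RPL38 no longer passed, at −0.22 to −0.85.

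RPS23, a protein of the decoding centre, fell by 1.75 ± 0.56 on 227722_at of U133B (adjusted p in limma 0.0244). That call was lost without lateral rectus replicate 2 (−1.52), medial rectus replicate 2 (−1.44) or orbital layer replicate 2 (−1.33), and under no filter or either other scaling. The RPS23 probe set past the filter on U133A was at 0.05. RPS19 fell by 1.18 ± 0.24 on 242451_x_at of U133B, while its probe sets past the filter on U133A were at 0.10 and −0.18 and were not called. RPS15A fell by 0.90 ± 0.31 on 229882_at. This call was lost without global layer replicate 1 or 2, lateral rectus replicate 2 or medial rectus replicate 1 or 2 (−0.75 to −0.90). It was also lost with quantile normalization (−0.60) and with median scaling (−0.40). The other RPS15A probe sets past the filter were at 0.07 and −0.83 and were not called. RPLP1 fell by 0.61 ± 0.20 (adjusted p in limma 0.0252). It read 16829 to 32378 in the layers and 30645 to 44215 in whole muscle, which overlap, and its call was lost when global layer replicate 1 (−0.43) or 2 (−0.58) was left out, or lateral rectus replicate 2 (−0.60) or medial rectus replicate 1 (−0.53). Neither the call nor its sign held under median scaling (0.02). The U133B count of 5 lower became 3 without global layer replicate 2, orbital layer replicate 2 or either medial rectus array, and 2 without lateral rectus replicate 2.

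Probe sets of the same gene often went opposite ways. Of the 52 genes with at least 2 probe sets past the filter, 21 had all of them higher in the layers, 8 all lower and 23 mixed. Over all 67 genes, 32 had calls that were only higher, 16 only lower, 14 none, and RPL10, RPL13, RPS10, RPS16 and RPS3A had calls in both directions. Of these 5 genes, RPL13 and RPS3A also had calls both ways with median scaling and RPL13, RPS10 and RPS3A with quantile normalization. RPL13 spanned the widest range. Its 214351_x_at read 3014 to 5490 in the layers and 251 to 1034 in whole muscle, 3.17 ± 0.37 higher (adjusted p in limma 1.01e-04), and its 212933_x_at was at −0.49 ± 0.14 (adjusted p in limma 0.0126), or 0.14 under median scaling. On U133B its 229590_at was called lower at −2.56, with both global arrays below the floor. RPS28 was at −2.51 ± 0.49 on 208903_at, where the layers read 158 to 800 and whole muscle 1033 to 3160, and at 0.31 ± 0.21 on the brighter 208904_s_at. RPS10, a protein modified when ribosomes collide, was at 0.93 ± 0.15 on 200095_x_at and −1.01 ± 0.26 on 214001_x_at, where it no longer passed with quantile normalization (−0.56) or median scaling (−0.38). RPS16 fell by 1.39 ± 0.50 on the dim 226130_at, a call lost without global layer replicate 2, either lateral rectus array, medial rectus replicate 1 or orbital layer replicate 2 (−0.92 to −1.42), with no filter, and with quantile normalization (−0.88) or median scaling (−0.89). RPL10, which joins the large subunit late, was at 0.84 ± 0.13 on the bright 200725_x_at and −1.34 ± 0.33 on the dim 200724_at, which no longer passed with quantile normalization (−0.78) or median scaling (−0.70). By suffix, x_at probe sets held 30 of the 41 higher calls on U133A, and 11 were called higher there without them. Their median was 0.38 over 61 probe sets, against 0.12 over 39 s_at and 0.05 over 21 at probe sets. On U133B s_at probe sets held 15 of the 25 higher calls, against 4 for x_at and 6 for at probe sets. The medians on U133B were 1.09 over 17 s_at, 0.48 over 8 x_at and −0.19 over 17 at probe sets.

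**Figure D4:**
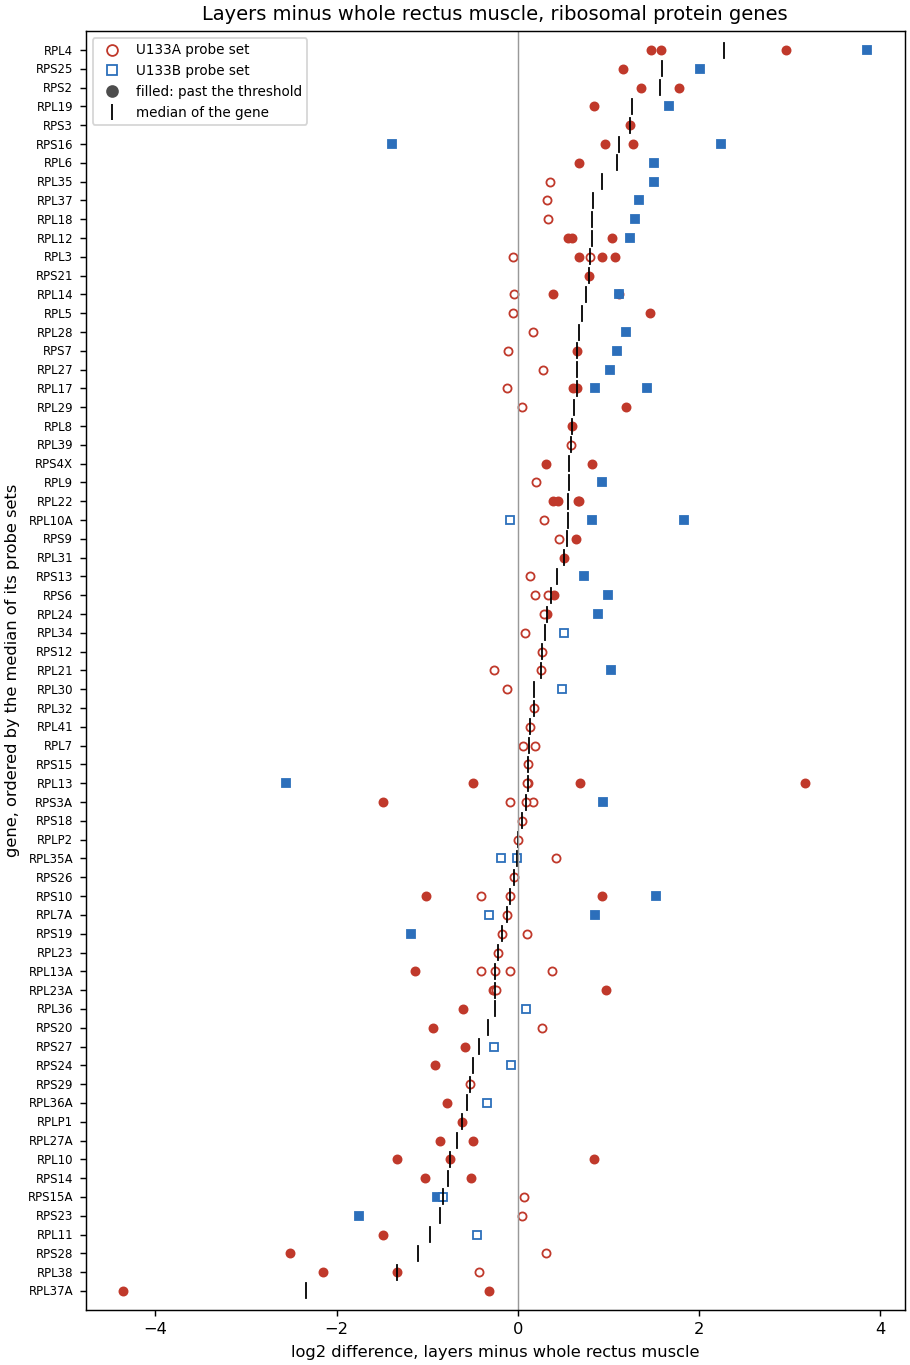
Log2 difference of layers minus whole rectus muscle for every ribosomal protein probe set past the filter, in 1 line per gene ordered by the gene's median (vertical bar); circles are U133A, squares U133B and filled points passed the threshold. RPL4 lies at the top with 4 filled points to the right and RPL37A at the bottom with a point at −4.36, and RPL13, RPS10, RPS16 and RPL10 have filled points on both sides of 0 in the authors' scaling.

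The 25 probe sets that lie on both array types could be read on a second array. The labels do not say whether the same RNA went on both. For layers minus whole muscle, 20 were higher on both, 2 lower on both (RPL11, at −1.48 and −0.45, and RPS24, at −0.91 and −0.07) and 3 opposite, and 7 were called higher on both. Pearson's r between the array types was 0.967 across these 25 probe sets, which are not independent replicates and share their sequences. Every one of the 25 read higher on U133B, by 0.43 to 1.21 with a median of 0.81, and their medians were 0.28 on U133A and 1.03 on U133B. The spread between these 25 probe sets was thus alike on both array types, and their level was not.

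For orbital minus global, 17 of the 25 were higher on both, 3 lower on both and 5 opposite, with medians of 0.22 and 0.18 and an r of 0.888. RPL4, RPL11 (0.49 ± 0.50 and 0.57 ± 0.58) and RPS7 (0.52 ± 0.61 and 0.43 ± 0.58) had the largest mean differences over both array types, and for RPL11 and RPS7 the errors were as large as the values. Without global layer replicate 1, RPS7 turned to −0.59 on U133A and −0.63 on U133B. For medial minus lateral, 17 were lower on both, none higher on both and 8 opposite, with medians of −0.12 and −0.27 and an r of 0.199.

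**Figure D5:**
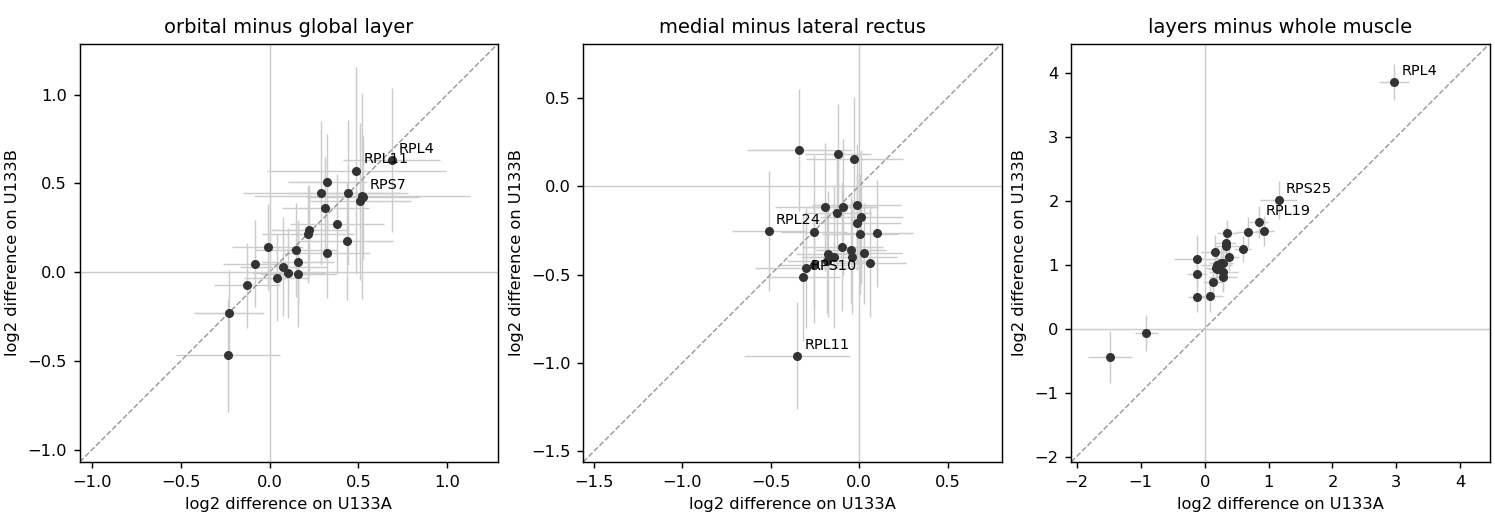
Log2 differences of the 25 probe sets present on both array types, U133A against U133B, for each comparison, with standard errors as grey bars and the line of equality dashed. For layers minus whole muscle the points run parallel to the line and all lie above it, and for medial minus lateral rectus they scatter with an r of 0.199.

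Genes close to the family were read beside it; FAU, RPL22L1, EEF1A1 and TPT1 are named after their values were seen. FAU, which encodes a ribosomal protein of the small subunit fused to a ubiquitin-like protein and is outside the symbol rule, read 13559 and 12749 in the orbital layer and 5425 and 12097 in the global layer on U133A. The groups did not overlap, and the difference was 0.70 ± 0.37 on U133A and 0.73 ± 0.40 on U133B (adjusted p in limma 0.589 and 0.728); global layer replicate 1 was again the low array. RPL22L1, the paralog of RPL22, was at −0.72 ± 0.38 between the layers on U133B, where global layer replicate 2 read 23449 and the other layer arrays 8809 to 10521. RPS27L (0.99 ± 0.29 on U133A) and RPL7L1 (0.97 ± 0.18 on U133B) were called higher in the layers than in whole muscle.

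No member of the comparison lists passed the threshold between orbital and global layers in limma. Of all probe sets tested on U133A in this comparison, 9.49% had an unadjusted p under 0.05. Of 37 probe sets of elongation factors and other mRNAs with the same 5' tract on U133A, 19 were higher in the orbital layer, 3 had an unadjusted p under 0.05, and the median was 0.06. Within that list, 4 of 4 probe sets of EEF1A1, which brings tRNA to the ribosome, were higher (0.12 to 0.57), and 5 of 5 of TPT1 were lower (−0.22 to −0.61). Mitochondrial ribosomal proteins, which form a separate ribosome, had a median of −0.21 on U133A, with 9 of 47 higher and 4 with an unadjusted p under 0.05, and proteasome subunits had −0.23, with 12 of 44 higher and 2 with an unadjusted p under 0.05. These medians lay below the −0.04 of all probe sets, on the other side of the 0.16 of the cytosolic family, and the difference between lists was not tested. Between layers and whole muscle, 13 mitochondrial ribosomal protein probe sets were called higher and 8 lower of 44 on U133A (median 0.17), and 23 higher and 2 lower of 51 on U133B (median 0.69). Of all probe sets tested, 18.6% were called higher and 30.1% lower on U133A and 20.5% and 22.3% on U133B. Proteasome subunits had 1 called higher and 0 lower of 6 on U133B (median −0.17), and 19 called higher and 5 lower of 45 on U133A (median 0.52). Of the elongation factor list 11 were higher and 10 lower of 37 (median 0.09): PABPC1, the poly(A)-binding protein, was called higher (1.41 ± 0.17), as were 2 probe sets of NACA (1.06 and 0.90), and EEF2, which moves the ribosome along the mRNA, was called lower on both U133A probe sets (−1.32 and −1.36) and was at −0.25 ± 0.25 on U133B.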

How the data were processed

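Intensities on 16 arrays were deposited by the authors as 1 linear value per probe set, with no detection calls; per the labels, macaque RNA was run on human U133A and U133B arrays, and the summary software is not given in the sources used here. Arrays were brought to the same 2% trimmed mean (nearly so as deposited), values under the pooled 20th percentile were raised to it, log2 was taken, and probe sets whose mean reached the pooled median over the arrays compared were kept. The 68 control probe sets per array type were left out. Tests were two-sided, in limma 3.58.1 (R 4.3.3) with an intensity trend, per array type, with Benjamini-Hochberg adjustment over all probe sets kept; the script was tested on simulated data. Alternatives were other scalings, floors, filters and variance models, 1 probe set per gene, no x_at probe sets, the replicate block and each array left out. Figures were drawn with matplotlib 3.10.9 and pandas 2.3.3 in Python 3.11.15.

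The probe sets, lists and tests were chosen with earlier results of these data known. Named were, per comparison and array type, up to 10 probe sets with 1 symbol in each direction with the largest difference among those past the threshold; places up to 5 were filled from those whose groups do not overlap. RPL3, RPL3L, RPLP1, RPLP2, genes whose probe sets differ most, the largest differences over both array types and list members past the threshold were added. The lists held ribosomal paralogs, elongation factors and similar mRNAs, ribosome biogenesis, mitochondrial ribosomal proteins, proteasome, and markers of 8 cell types. Arrays were grouped by title; 4 of the 8 rectus arrays carry no number and were numbered in order of deposit.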

Additional observations from a re-analysis of the deposited data

Results flagged for a closer look

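Among 126 values of named probe sets in groups of 4 arrays (the layers, or whole muscle), 11 had 1 array far from the other 3, by a ratio of its gap to the group's range above the critical value; chance alone flags about 1 in 20 groups. On U133A in the layers, RPS3 read 24254 in global layer replicate 1 against 44020 to 48520 (ratio 0.860), and RPL10 on 201757_at read 2334 in global layer replicate 2 against 1005 to 1121 (0.870). On U133A in whole muscle, RPL23A on 203012_x_at read 111760 in lateral rectus replicate 1 against 57908 to 64632 (0.833), and RPL38 on 221943_x_at read 15711 in that array against 11677 to 12131 (0.871). RPL37A on 214041_x_at read 5132 in medial rectus replicate 2 against 6729 to 6855 (0.936). On U133B in the layers, global layer replicate 1 was the low array for RPL37 on 200092_s_at (105590 against 165370 to 172890; 0.910) and RPL18 on 200022_at (60692 against 88875 to 94509; 0.861). RPL17 on 224957_at was low in orbital layer replicate 2 (5562 against 8487 to 9179; 0.844), and RPL7A on 234873_x_at was high in global layer replicate 2 (109530 against 78870 to 82592; 0.860). On U133B in whole muscle, RPL35 on 200002_at was low in lateral rectus replicate 2 (23099 against 29347 to 30116; 0.902) and RPL14 on 200074_s_at in medial rectus replicate 2 (23217 against 33489 to 35965; 0.837).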

How the results depend on the processing

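The layers were numbered alike in the titles, but nothing says that a number pairs arrays. Deviations of same-numbered arrays from their group means correlated at 0.26 on U133A and 0.13 on U133B, with 2 pairs only; with the replicate block, no ribosomal protein probe set passed the threshold between the layers, and the medians stayed at 0.16 and 0.09. No paired analysis was possible for the other comparisons because rectus numbers come partly from the order of deposit.

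Between the layers, non-overlap counts higher and lower on U133A (34 and 15) became 17 and 4 with 1 probe set per gene. They were 16 and 6 without x_at probe sets. The lower count was 5 with median scaling, against 15.2% of all probe sets. On U133B the counts (4 and 5) became 13 and 1 with quantile normalization, against 19.6% and 18.2% of all probe sets. Under median scaling they were 1 and 8, against 15.5% and 22.1%. The lower count on U133B was 3 with 1 probe set per gene. Leaving out each array gave 0 to 8 calls and medians of 0.01 to 0.25 on U133A, and −0.18 to 0.17 on U133B.

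Between the muscles, the U133A median was 0.00 with quantile normalization (−0.0020 before rounding) and −0.15 with median scaling. The U133A counts (6 and 28) became 13 lower with quantile normalization, against 13.8% of all probe sets, and 2 higher with median scaling, against 10.8%. They became 3 higher with the filter at the 75th percentile, 2 and 16 with 1 probe set per gene, and 3 and 17 without x_at probe sets. On U133B the median was −0.058 and the counts 3 and 3 with quantile normalization, against 15.2% and 16.2% of all probe sets. The higher count on U133B was 4 with no filter and 0 without x_at probe sets. Leaving out each array gave medians of −0.48 to −0.094 on U133B.

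Between layers and whole muscle on U133A, quantile normalization gave 16 higher calls, a median of −0.13 and non-overlap counts of 15 and 30. The shares of all probe sets beside these counts were 19.1% and 19.1%. Median scaling gave 86 and 4 calls, a median of 0.82 and counts of 74 and 3, against 37.5% and 9.65% of all probe sets. With the filter at the 75th percentile the lower count was 11. With 1 probe set per gene there were 25 and 9 calls and counts of 20 and 7, and without x_at probe sets 11 higher calls and counts of 7 and 11. On U133B, quantile normalization gave 5 higher calls, a median of −0.075 and counts of 5 and 10, against 18% and 15.2% of all probe sets. Median scaling gave 2 lower calls, a median of 1.37 and a lower count of 2, against 8.62%. The filter at the 75th percentile gave 1 lower call and a lower count of 1. Leaving out each array gave 2 to 5 lower calls on U133B and 33 to 49 higher calls on U133A. The 33 came without orbital layer replicate 1, where the U133A median was 0.13.

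Signs turned with median scaling for RPLP1 (0.022), RPL37A on 201429_s_at (0.32) and RPL13 on 212933_x_at (0.14) on U133A, and with quantile normalization for RPL14 on 200074_s_at (−0.15), RPL10A on 200036_s_at (−0.52), RPL17 on 200038_s_at (−0.45) and RPL7A on 234873_x_at (−0.33) on U133B. The cause was not tested. Floors at the 5th and 40th percentile, array weights, no intensity trend and 1 fit over all 4 groups left every count of the family within 1.5 times and every median within the replicate spread. For no intensity trend and 1 fit over all 4 groups the medians could not change, because these settings alter only the error. Non-overlap was not counted with an array left out. With 2 arrays a group and no detection calls, low probe sets are the least certain.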

Other observations

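The 16 U133A probe sets of ribosome biogenesis genes past the filter had a median of 0.08 between orbital and global layers, with 9 higher, none called in limma and none with an unadjusted p under 0.05. Between layers and whole muscle 6 were called higher and 6 lower (median 0.43), and on U133B 1 higher and 2 lower of 7 (median −0.49). Of all probe sets tested, 18.6% were called higher and 30.1% lower on U133A and 20.5% and 22.3% on U133B.

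Marker lists of cell types were read on U133A for orbital minus global, where none of their probe sets was called in limma. Of all probe sets tested there, 9.49% had an unadjusted p under 0.05. Skeletal muscle markers were higher for 4 of 10 (median −0.12, 4 with an unadjusted p under 0.05), fibroblast markers for 11 of 15 (0.26, 5), endothelial markers for 1 of 5 (−0.34, 1), and smooth muscle and pericyte markers for 6 of 8 (0.15, 1). Immune markers were higher for 2 of 4 (0.07, 1), Schwann and nerve markers for 1 of 3 (−0.54, 0), and haemoglobin probe sets for 2 of 3 (0.09, 0). The only adipocyte probe set past the filter, of FABP4, was at −1.74 (unadjusted p in limma 0.00582), and ADIPOQ, LEP and PLIN1 were at the floor in both layers. Between medial and lateral rectus, all 10 skeletal muscle markers were lower in medial rectus (median −0.21), with none called and none with an unadjusted p under 0.05. Between layers and whole muscle, 5 smooth muscle probe sets were called higher and 1 lower of 8 (median 0.74), and 3 fibroblast higher and 4 lower of 14 (−0.10). For skeletal muscle 1 was called higher and 2 lower of 10 (0.10), and for endothelium 2 lower of 5 (−0.22). Of all probe sets tested on U133A in that comparison, 18.6% were called higher and 30.1% lower.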
